A study of Mus musculus with 14 samples.

Results

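Transcript levels are described here for 10 genes that carry the signal of Toll-like receptors (TLRs) to the first kinases inside the cell. They are the LPS co-receptors Cd14 and Ly96, the MyD88 branch (Myd88, Tirap, Irak2, Irak4 and Traf6) and the TRIF branch (Ticam1, Ticam2 and Tbk1). The genes were chosen by name and not by a threshold on their values, although earlier results of these data were known. They come from the 39721 entries of a table of FPKM, a level scaled to transcript length and library size. Of the 10, 9 had an entry of their own, and Ticam2 was found only in an entry that it shares with its neighbour Tmed7, so its values below are those of both genes together. RNA came from macrophages grown from bone marrow of male C57Bl6/J mice aged 6 to 12 weeks, in medium with L929-conditioned supernatant as the source of the growth factor CSF-1. All cells were given either PBS or 100 ng/mL of Poly I:C, a synthetic double-stranded RNA sensed by TLR3. After 24 h the medium was removed, the cells were washed and PBS or LPS, the bacterial ligand of TLR4, was given for 2 h or 6 h. This makes 8 groups in 14 libraries: PBS then LPS, Poly I:C then PBS and Poly I:C then LPS had 2 libraries at each time, and PBS then PBS had 1 at each time. The labels give no genotype beyond the strain and no separate dose for LPS as the later stimulus. They do not say that libraries of a group came from separate animals or cultures, so p-values reflect no more than the variation among these libraries, part or all of which may be technical.

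As background, CD14 binds LPS and hands it to MD-2, the product of Ly96, which sits on TLR4 and holds the ligand. From the cell membrane, TLR4 signals through the bridging adaptor TIRAP to MyD88, which gathers the kinases IRAK4 and IRAK2 and the ubiquitin ligase TRAF6 and leads to NF-kB and inflammatory cytokines. From the endosome, TLR4 signals through the bridging adaptor TRAM (Ticam2) to TRIF (Ticam1), which TLR3 engages directly, and through the kinase TBK1 to the transcription factor IRF3 and type I interferon.

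Replicates of a group correlated at r = 0.974 to 0.988, taken across genes, which do not count as replicates. The loosest pair was PBS then LPS at 2 h, with 306 genes more than 2-fold apart against 95 in the tightest pair. All 8 macrophage markers reached 1 FPKM in at least 1 library, with a summed level of 5361 to 8660 FPKM in the Poly I:C groups and 13857 to 20640 FPKM in the groups given PBS first. Cd14 is itself on that list, and Lyz2 had the highest median of its genes. Lyz2 ran from 2408 to 16240 FPKM over the libraries, where no other marker on the list exceeded the 2180 FPKM of Cd68. The sum thus says little about the other markers. Of the 6 stromal markers 5 reached 1 FPKM, summing to 40.3 to 106 FPKM at 2 h after Poly I:C against 14.5 to 19.6 FPKM at 2 h without it. At 6 h these ranges overlapped, at 21.9 to 52.1 FPKM with Poly I:C and 18.2 to 59.6 FPKM without it. Of the 5 dendritic cell markers 3 did, and their sum ran from 0.163 to 21.9 FPKM and was highest in Poly I:C then LPS (16.3 to 21.9 FPKM). Among them Xcr1 reached 8.94 FPKM with a median of 3.77 FPKM, Ccr7 reached 17.7 FPKM with a median of 0.126 FPKM, and Zbtb46 reached 1.68 FPKM. Flt3 did not exceed 0.200 FPKM and Siglech 0.136 FPKM. Neutrophil markers (2 of 7 reached 1 FPKM) summed to at most 3.14 FPKM and T cell markers (1 of 6) to at most 7.31 FPKM with Cd3e at 0 in every library. B cell, NK cell, erythroid and mast cell or basophil markers summed to at most 0.913, 0.244, 1.05 and 0.252 FPKM. Whether other cells played a part in the results below was not tested, and in bulk RNA fewer cells of a type and less RNA per cell cannot be told apart.

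Promoters of 7 members were searched, and those of Cd14, Ly96 and Ticam2 were not. The promoters of the 4 members with the widest range of levels among the 7 searched are shown because they differ in the letters they hold. Each runs from 250 bases before to 50 after the RefSeq start (GRCm38.p6), 5′ to 3′ on the gene's own strand. Matches to 3 motifs are in capitals, searched on both strands. They are GGG and CC with 5 bases of any kind between them (an NF-kB-like motif), GAAA and GAAA with 2 bases between (like an interferon-stimulated response element) and TTC and GAA with 3 bases between (a STAT-like motif). Myd88 lies on the minus strand at chr9:119339969-119340268, Irak2 on the plus strand at chr6:113638217-113638516, Ticam1 on the minus strand at chr17:56276718-56277017 and Tbk1 on the minus strand at chr10:121586745-121587044.
Myd88: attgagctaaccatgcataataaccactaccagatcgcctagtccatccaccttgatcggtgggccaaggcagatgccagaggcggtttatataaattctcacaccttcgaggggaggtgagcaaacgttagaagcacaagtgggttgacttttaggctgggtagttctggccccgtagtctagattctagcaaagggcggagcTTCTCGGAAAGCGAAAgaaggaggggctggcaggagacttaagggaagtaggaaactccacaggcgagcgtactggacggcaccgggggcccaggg
Irak2: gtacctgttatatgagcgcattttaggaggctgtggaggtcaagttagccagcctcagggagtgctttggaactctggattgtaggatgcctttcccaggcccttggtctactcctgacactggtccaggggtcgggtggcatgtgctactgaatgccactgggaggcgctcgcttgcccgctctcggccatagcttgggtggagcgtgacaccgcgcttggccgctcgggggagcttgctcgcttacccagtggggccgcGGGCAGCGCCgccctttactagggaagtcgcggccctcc
Ticam1: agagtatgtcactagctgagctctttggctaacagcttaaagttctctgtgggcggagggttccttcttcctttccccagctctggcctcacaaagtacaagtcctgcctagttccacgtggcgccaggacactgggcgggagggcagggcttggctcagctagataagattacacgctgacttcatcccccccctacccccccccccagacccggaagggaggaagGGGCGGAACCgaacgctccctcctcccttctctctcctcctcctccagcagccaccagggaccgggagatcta
Tbk1: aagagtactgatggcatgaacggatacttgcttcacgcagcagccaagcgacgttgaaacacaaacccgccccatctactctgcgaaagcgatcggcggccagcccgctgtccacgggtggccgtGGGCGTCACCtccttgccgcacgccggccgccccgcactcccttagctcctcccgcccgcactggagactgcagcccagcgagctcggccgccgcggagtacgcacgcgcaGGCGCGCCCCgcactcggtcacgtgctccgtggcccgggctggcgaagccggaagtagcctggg
The Myd88 promoter held TTCTCGGAA at position -46 and GAAAGCGAAA at position -40 from the start, which are matches to the STAT-like and the response element-like motif and overlap, and no NF-kB-like match. The other 3 held NF-kB-like matches and neither of the other motifs: GGGCAGCGCC at 11 in Irak2, GGGCGGAACC at -23 in Ticam1, and GGGCGTCACC at -125 and GGCGCGCCCC at -14 in Tbk1. Of the 7 members searched, which also include Tirap, Irak4 and Traf6, 6 held the NF-kB-like motif. So did 50.8% of 32851 mouse promoters of the same length. The response element-like motif was in 3.44% and the STAT-like motif in 8.30% of those promoters, and among the 7 members in that of Myd88 alone. These matches describe letters and not binding.

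Cd14, the LPS-binding co-receptor (chromosome 18, 36725067 to 36726798, minus strand, GRCm38), was the most abundant member and had the widest range, 21.8-fold between group means. Its level was 338 FPKM in PBS then PBS at 2 h and 231 FPKM at 6 h. In PBS then LPS it was 1986 and 1446 FPKM at 2 h and 946 and 1042 FPKM at 6 h. Poly I:C then PBS gave 122 and 128 FPKM at 2 h and 69.4 and 87.7 FPKM at 6 h, the lowest of all groups. Poly I:C then LPS gave 1030 and 1190 FPKM at 2 h and 1212 and 1142 FPKM at 6 h. Every library given LPS lay above every library that was not, and without LPS the Poly I:C libraries lay below those given PBS alone. LPS raised Cd14 by 2.32 ± 0.21 (log2(FPKM + 1) change ± SE) at 2 h and 2.10 ± 0.21 at 6 h after PBS (adjusted p = 4.23e-05 and 2.28e-05, limma). After Poly I:C it raised Cd14 by 3.13 ± 0.17 and 3.90 ± 0.17 (adjusted p = 2.22e-06 and 1.16e-07). Poly I:C alone lowered it, with changes of -1.42 ± 0.21 and -1.56 ± 0.21 (adjusted p = 3.31e-04 and 2.91e-04).

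Ly96, which encodes the LPS-holding subunit MD-2 (chromosome 1, 16688051 to 16709611, plus strand), was lowest in the cells that had PBS only, at 16.7 FPKM at 2 h and 22.4 FPKM at 6 h. LPS after PBS gave 26.9 and 26.9 FPKM at 2 h and 50.3 and 48.8 FPKM at 6 h. Poly I:C then PBS gave 50.5 and 49.7 FPKM at 2 h and 53.3 and 37.3 FPKM at 6 h. With both agents it was 67.3 and 68.9 FPKM at 2 h and 69.2 and 66.6 FPKM at 6 h. Both times of Poly I:C then LPS overlapped each other and lay above all other groups. Thus without LPS the co-receptors moved in opposite directions with Poly I:C. Ly96 rose by 1.53 ± 0.18 at 2 h and 0.96 ± 0.18 at 6 h (adjusted p = 6.47e-05 and 0.00221, limma), where Cd14 fell.

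Myd88, the adaptor that names its branch (chromosome 9, 119335934 to 119341411, minus strand), had its highest level in PBS then LPS at 6 h and not in cells given both agents. It stood at 28.2 FPKM in PBS then PBS at 2 h and 29.4 FPKM at 6 h. It was 82.5 and 63.3 FPKM after 2 h and 226 and 275 FPKM after 6 h of LPS alone. After Poly I:C alone it was 93.5 and 85.5 FPKM at 2 h and 55.1 and 53.3 FPKM at 6 h. With both agents it was 163 and 166 FPKM at 2 h and 143 and 143 FPKM at 6 h. No 2 groups overlapped in their libraries, although the PBS-only groups are 1 library each. The assembled locus of the Myd88 entry is shared with 7 other entries, among them Acaa1a and Oxsr1, and how fragments were divided there was set in the authors' processing. The same holds for Tirap, whose locus is shared with Srpr, Foxred1 and Fam118b, for Irak4 with Twf1 and for Tbk1 with entries of Xpot and Gm24330.

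Irak2, the IRAK family kinase that sustains signalling in the MyD88 complex (chromosome 6, 113638467 to 113695026, plus strand), was highest where both agents were given. It was 21.8 FPKM in PBS then PBS at 2 h and 12.2 FPKM at 6 h. LPS after PBS gave 36.0 and 39.3 FPKM at 2 h and 60.5 and 64.6 FPKM at 6 h. Poly I:C then PBS gave 62.7 and 53.6 FPKM at 2 h and 33.7 and 32.6 FPKM at 6 h, and both agents 108 and 113 FPKM at 2 h and 84.7 and 75.9 FPKM at 6 h. The libraries given both agents lay above all others, at 2 h above 6 h.

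The other 3 members of the branch were low and varied less. Irak4, the kinase that starts the IRAK cascade (chromosome 15, 94543643 to 94581815, plus strand), ranged from 5.83 to 14.1 FPKM with a median of 9.65 FPKM, and its group means spanned 1.82-fold. Its libraries were 11.0 FPKM at 2 h and 10.6 FPKM at 6 h in PBS then PBS, and 5.83 and 8.42 then 11.9 and 14.1 FPKM in PBS then LPS. They were 9.31 and 8.73 then 11.3 and 11.3 FPKM in Poly I:C then PBS, and 6.56 and 8.82 then 8.58 and 9.99 FPKM in Poly I:C then LPS. Its 4 groups with the lowest means overlapped with their neighbours, and PBS then LPS at 6 h lay above all others. It passed the test in none of the 5 comparisons of agents at either time. Only the rise from 2 h to 6 h in PBS then LPS passed (0.80 ± 0.18, adjusted p = 0.00481, limma). Traf6, the ubiquitin ligase downstream of the IRAKs (chromosome 2, 101678429 to 101701669, plus strand), ranged from 3.81 to 8.54 FPKM. It was 4.38 and 3.81 FPKM in the libraries of PBS then PBS, and 5.51 and 7.76 FPKM at 2 h and 5.37 and 5.51 FPKM at 6 h in PBS then LPS. It was 5.85 and 4.98 then 4.19 and 4.10 FPKM in Poly I:C then PBS, and 8.54 and 8.32 then 6.41 and 7.05 FPKM in Poly I:C then LPS. Within each time the libraries given both agents were its highest. Tirap, the bridge between TLR4 and MyD88 (chromosome 9, 35184551 to 35200291, minus strand), ranged from 3.75 to 13.1 FPKM. After 6 h of LPS it was 12.5 and 10.2 FPKM following PBS and 13.1 and 10.3 FPKM following Poly I:C, above all its other libraries, which reached at most 8.32 FPKM. Its spread between replicates was wide, with 3.91 and 8.04 FPKM in PBS then LPS at 2 h.

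In the TRIF branch, Ticam1, which encodes TRIF itself (chromosome 17, 56269319 to 56276786, minus strand), was 4.37 FPKM in PBS then PBS at 2 h and 7.03 FPKM at 6 h. LPS after PBS gave 10.6 and 13.1 FPKM at 2 h and 19.0 and 18.6 FPKM at 6 h. Poly I:C then PBS gave 13.7 and 16.8 FPKM at 2 h and 9.0 and 10.1 FPKM at 6 h. Poly I:C then LPS gave 21.6 and 20.2 FPKM at 2 h and 15.8 and 15.3 FPKM at 6 h. The PBS-only libraries were the lowest at each time, and at 6 h the libraries given both agents lay below those given LPS alone, without overlap, although that difference did not pass the test.

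Tbk1, the kinase that phosphorylates IRF3 (chromosome 10, 121546455 to 121586787, minus strand), was 23.9 and 21.1 FPKM at 2 h and 6 h in PBS then PBS. It was 30.9 and 33.6 FPKM after 2 h and 54.1 and 58.7 FPKM after 6 h of LPS alone. It was 60.8 and 65.1 FPKM at 2 h and 32.1 and 27.2 FPKM at 6 h in Poly I:C then PBS. With both agents it reached 105 and 106 FPKM at 2 h and fell back to 64.0 and 60.3 FPKM at 6 h. The 2 h libraries given both agents were above every other library. The entry that holds Ticam2, the bridging adaptor TRAM (chromosome 18, 46557291 to 46574533, minus strand), together with Tmed7, a gene of vesicle transport, moved least, with group means spanning 1.60-fold and libraries from 41.1 to 74.9 FPKM. Its highest libraries were those given both agents, at 66.9 and 74.9 FPKM at 2 h and 72.1 and 66.4 FPKM at 6 h, and PBS then PBS stood at 48.1 and 49.8 FPKM. It was 42.8 and 61.5 FPKM at 2 h and 63.5 and 60.0 FPKM at 6 h in PBS then LPS, and 48.6 and 54.0 then 47.5 and 41.1 FPKM in Poly I:C then PBS.

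**Figure D1:**
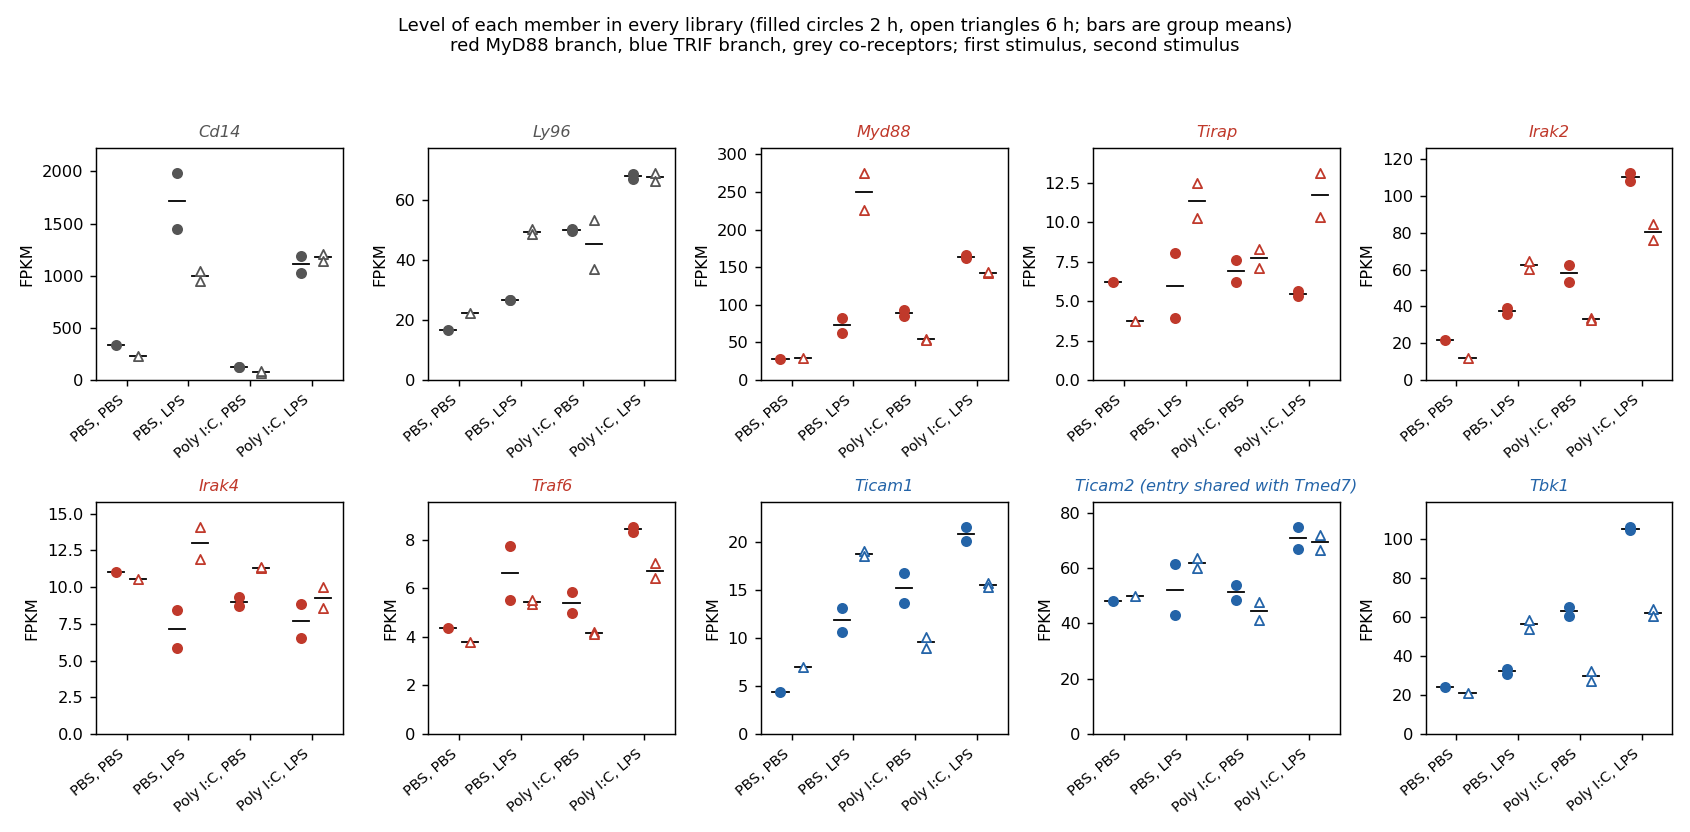
Level of each member (FPKM, linear axis from 0) in every library, by first and later stimulus; filled circles are 2 h, open triangles 6 h, short bars group means, and names are red for the MyD88 branch, blue for the TRIF branch and grey for the co-receptors. Myd88 peaks at 226 and 275 FPKM in PBS then LPS at 6 h, whereas Irak2 and Tbk1 peak in Poly I:C then LPS at 2 h.

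LPS alone was compared with PBS alone to ask which members respond to TLR4 ligand in cells without earlier treatment. At 2 h both co-receptors, 2 of 5 MyD88 branch genes and 1 of 3 TRIF branch genes rose, by limma with Benjamini-Hochberg adjustment over the 11977 genes tested. Besides Cd14, these were Ly96 (0.66 ± 0.18, adjusted p = 0.0311), Myd88 (1.33 ± 0.17, adjusted p = 5.10e-04), Irak2 (0.76 ± 0.14, adjusted p = 0.00432) and Ticam1 (1.25 ± 0.17, adjusted p = 7.19e-04). No member was called lower, although Irak4 (-0.58, 95% interval -1.09 to -0.08) had an unadjusted p under 0.05. The 5 of 10 that rose stand beside 9.47% of all genes called higher, and the median change of the members was 0.57 against 0.04 over all genes. At 6 h 7 of 10 rose, beside 22.9% of all genes, with a median of 1.34 against 0.02. Myd88 changed most (3.04 ± 0.17, adjusted p = 3.98e-07), a fold of 8.23 on the FPKM + 1 scale, followed by Irak2 (2.26 ± 0.14, adjusted p = 7.13e-07). Tirap (1.37 ± 0.31, adjusted p = 0.00490) and Tbk1 (1.38 ± 0.14, adjusted p = 2.36e-05) passed here. They had not passed at 2 h, with -0.11 (95% interval -0.81 to 0.58) and 0.42 (0.11 to 0.72). Ticam1 changed by 1.30 ± 0.17 and Ly96 by 1.11 ± 0.18 (adjusted p = 1.60e-04 and 5.73e-04). Irak4, Traf6 and Ticam2 did not pass at either time, with intervals at 6 h of -0.23 to 0.77, -0.01 to 0.85 and -0.14 to 0.74. The control is 1 library at each time. The 2 h call of Ly96 was lost without PBS then LPS replicate 1 (0.66, adjusted p = 0.0601), whereas Traf6 (0.70) and Tbk1 (0.47) passed without that library, and Irak4 (-0.81) without replicate 2. With both PBS-only libraries as the control, Ly96 was lost too (0.45, adjusted p = 0.0701), and Irak4 (-0.56), Traf6 (0.57) and Tbk1 (0.50) passed (adjusted p = 0.0452, 0.0257 and 0.0116).

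Poly I:C followed by PBS, against PBS throughout, shows the effect of Poly I:C in cells not given LPS. These libraries were taken 2 h and 6 h after the change of medium, and none samples the cells at the moment LPS was given. At 2 h after the change of medium, 5 members were higher and Cd14 was lower. Myd88 was higher by 1.63 ± 0.17, Ticam1 by 1.59 ± 0.17, Ly96 by 1.53 ± 0.18, Irak2 by 1.37 ± 0.14 and Tbk1 by 1.36 ± 0.14, with limma adjusted p from 2.62e-05 for Tbk1 to 6.47e-05 for Ly96. Of all genes 24.9% were called higher and 22.4% lower. The median was 1.36 for the 3 TRIF branch genes, 0.25 for the 5 MyD88 branch genes and 0.05 for all genes. At 6 h 4 members were still called higher, beside 18.4% of genes, and Cd14 lower, beside 16.1%. The branch medians then stood the other way, at 0.39 (TRIF) and 0.86 (MyD88), with 0.06 for all genes. The change of Irak2 equalled that at 2 h (1.37 ± 0.14, adjusted p = 4.24e-05, limma), but levels on both sides were lower. The single PBS-only libraries stood at 21.8 FPKM at 2 h and 12.2 FPKM at 6 h. Group means of Poly I:C then PBS were 58.1 and 33.2 FPKM. Myd88 (0.86 ± 0.17, adjusted p = 0.00349) and Tbk1 (0.47 ± 0.14, adjusted p = 0.0247) had smaller values, and Ticam1 did not pass (0.39, 95% interval 0.01 to 0.77). Tirap, Irak4, Traf6 and Ticam2 did not pass at either time. Without replicate 1 of Poly I:C then PBS the 6 h call of Tbk1 was lost (0.35, adjusted p = 0.105), and with both PBS-only libraries as the control Ticam1 passed at 6 h (0.68, adjusted p = 0.0128).

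**Figure D2:**
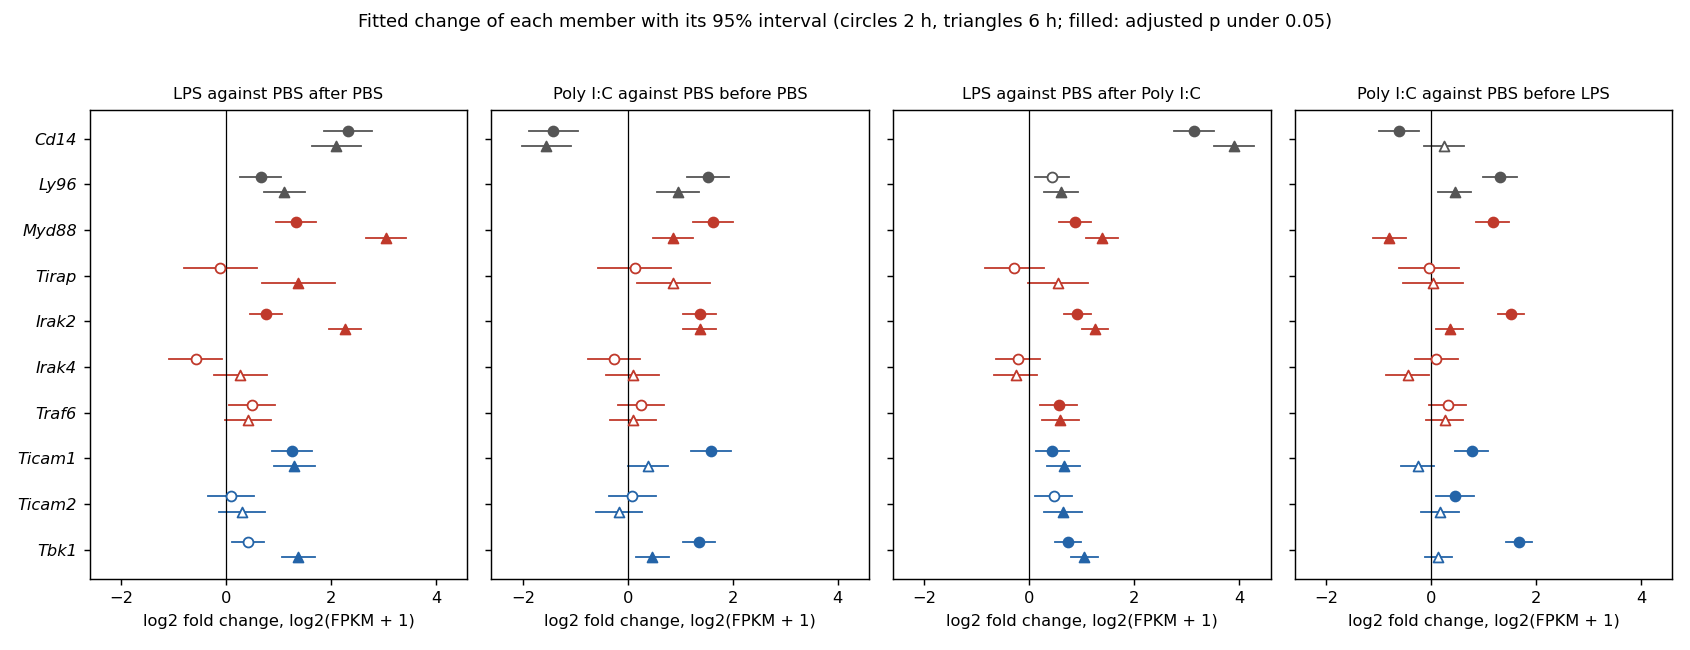
Fitted log2(FPKM + 1) change of each member (point) with its 95% interval (line) in the 4 comparisons of agents; circles are 2 h, triangles 6 h, filled symbols passed the adjusted p of 0.05, and colours are red for the MyD88 branch, blue for the TRIF branch and grey for the co-receptors. Before LPS, the 2 h and 6 h values of Myd88 lie on opposite sides of 0, at 1.17 and -0.80.

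LPS given after Poly I:C raised 6 members at 2 h, beside 14% of genes called higher, and 8 at 6 h, beside 21.7%. None was called lower, and none was lower at an unadjusted p under 0.05. Besides Cd14, the members higher at 2 h were Irak2 (0.92 ± 0.11, adjusted p = 2.73e-04), Myd88 (0.87 ± 0.14, adjusted p = 0.00146), Tbk1 (0.74 ± 0.11, adjusted p = 0.00104), Traf6 (0.56 ± 0.16, adjusted p = 0.0292) and Ticam1 (0.44 ± 0.14, adjusted p = 0.0496), by limma. At 6 h Myd88 changed by 1.38 ± 0.14, Irak2 by 1.25 ± 0.11 and Tbk1 by 1.05 ± 0.11 (adjusted p = 2.39e-05, 1.11e-05 and 3.60e-05). All 3 genes of the TRIF branch passed, Ticam1 with 0.65 ± 0.14 and the entry of Ticam2 with 0.63 ± 0.16 (adjusted p = 0.00354 and 0.00938). Traf6 (0.59 ± 0.16, adjusted p = 0.0126) and Ly96 (0.60 ± 0.14, adjusted p = 0.00721) completed the 8, and Tirap and Irak4 did not pass. The median change at 6 h was 0.64 for the members and -0.03 for all genes. At 2 h the call of Ticam1 was lost without any 1 of the 4 libraries compared (values 0.30 to 0.57) and that of Traf6 likewise (0.46 to 0.66). With all libraries of these groups kept, the Ticam1 call was also lost under all 6 other settings run, with adjusted p from 0.0556 at a pseudocount of 0.1 to 0.144 with libraries of 1 time alone. Under this last setting Traf6 was lost (adjusted p = 0.106) and Ly96 passed (0.44, adjusted p = 0.0468). At 6 h Traf6 lost its call without replicate 2 of Poly I:C then PBS (0.57) or of Poly I:C then LPS (0.53), and Ticam2 without replicate 2 of Poly I:C then PBS (0.53) or replicate 1 of Poly I:C then LPS (0.58).

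Whether Poly I:C altered the response to LPS was tested as an interaction, the LPS change after Poly I:C minus that after PBS. At 6 h the response of Cd14 was larger after Poly I:C, by 1.80 ± 0.27 (adjusted p = 7.87e-04). Its level without LPS was lower after Poly I:C (-1.56), and the difference in level with LPS did not pass (0.24). The responses of Myd88 and Irak2 were smaller, by -1.66 ± 0.22 and -1.02 ± 0.18 on the log2 scale (adjusted p = 3.96e-04 and 0.00207, limma). Without LPS both were higher after Poly I:C (0.86 and 1.37). With LPS Myd88 was lower (-0.80) but Irak2 was still higher (0.35). The interaction calls, 1 higher and 2 lower of 10, stand beside 12.7% and 16.7% of genes, so the shares are not far from those of all genes. No TRIF branch gene passed at 6 h, with Ticam1 at -0.65 (95% interval -1.14 to -0.15) and Tbk1 at -0.33 (-0.73 to 0.07). At 2 h limma called 0 of 10 members, beside 4.29% of all genes in either direction; 2 members, Cd14 and Ticam1, had an unadjusted p under 0.05, and the smallest adjusted p was 0.0749. Without PBS then LPS replicate 1 those 2 members passed at 2 h (Cd14 1.04, Ticam1 -0.96), and without replicate 2 Myd88 did (-0.65). With both PBS-only libraries as 1 control the 6 h call of Irak2 was lost (-0.62, adjusted p = 0.125), and Ticam1 (-0.94, adjusted p = 0.0190) and Ly96 (-0.72, adjusted p = 0.0393) passed as smaller after Poly I:C. Ticam1 also passed with libraries of 1 time alone (-0.65, adjusted p = 0.0306) and Ly96 without Poly I:C then PBS replicate 2 (-0.77). The 6 h call of Myd88 was thus kept with either control, whereas those of Irak2 and Ticam1 depended on the setting.

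The level reached after LPS was then compared between cells given Poly I:C and cells given PBS first. At 2 h 6 members were higher after Poly I:C and 1 was lower. Tbk1 was higher by 1.68 ± 0.11, Irak2 by 1.53 ± 0.11, Ly96 by 1.31 ± 0.14, Myd88 by 1.17 ± 0.14, Ticam1 by 0.77 ± 0.14 and the entry of Ticam2 by 0.46 ± 0.16, with adjusted p from 7.98e-07 for Tbk1 to 0.0319 for Ticam2. Cd14 was lower (-0.61 ± 0.17, adjusted p = 0.0101, limma). Of all genes 32.6% were higher and 28.5% lower, so many genes moved. All 3 TRIF branch genes and 2 of 5 MyD88 branch genes were among the higher. Traf6 (0.32, 95% interval -0.03 to 0.67), Irak4 (0.10, -0.31 to 0.51) and Tirap (-0.04, -0.61 to 0.53) did not pass. The Cd14 call was lost without PBS then LPS replicate 1 (-0.38, adjusted p = 0.0513) or Poly I:C then LPS replicate 1 (-0.51, adjusted p = 0.0787). The Ticam2 call was lost without any of PBS then LPS replicate 1 (0.20), Poly I:C then LPS replicate 1 (0.54) or replicate 2 (0.38), and also with no filter or with libraries of 1 time alone (0.46 in both). Traf6 passed without PBS then LPS replicate 2 (0.53).

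By 6 h Myd88 was lower in the cells given Poly I:C first (-0.80 ± 0.14, adjusted p = 9.84e-04, limma). Ly96 (0.45 ± 0.14, adjusted p = 0.0266) and Irak2 (0.35 ± 0.11, adjusted p = 0.0255) were higher. The other 7 members did not pass, among them all 3 TRIF branch genes. These counts stand beside 23.7% of genes higher and 25.9% lower, close to the members' own shares. Intervals were -0.57 to 0.05 for Ticam1, -0.11 to 0.39 for Tbk1, -0.20 to 0.52 for Ticam2 and -0.14 to 0.63 for Cd14. The calls of Ly96 and Irak2 were lost when libraries were left out, with values close to those above. Ly96 lost its call without any 1 of the 4 libraries (0.42 to 0.47), and Irak2 lost it without PBS then LPS replicate 1 (0.31) or 2 (0.40) or Poly I:C then LPS replicate 1 (0.27). Without any 1 of these 3 libraries Myd88 was the only member called. Irak4 (-0.44) passed as lower with a replicate block (adjusted p = 0.0465) or with libraries of 1 time alone (adjusted p = 0.0313).

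The difference between the 6 h and the 2 h effect of earlier Poly I:C was itself tested, and 5 members had a lower effect at 6 h and 1 a higher one. The differences were -1.97 ± 0.20 for Myd88, -1.54 ± 0.16 for Tbk1, -1.17 ± 0.16 for Irak2, -1.03 ± 0.20 for Ticam1 and -0.86 ± 0.20 for Ly96, with adjusted p from 3.36e-05 for Myd88 to 0.00668 for Ly96. For Cd14 the difference was 0.86 ± 0.24 (adjusted p = 0.0156, limma). Of all genes 25.3% had a lower and 19.1% a higher effect at 6 h. Both branches thus held members with a smaller effect at 6 h, 2 of 5 in the MyD88 branch and 2 of 3 in the TRIF branch. Of these 4 genes, Myd88 was called lower at 6 h than in cells given LPS only. The Cd14 call was lost without replicate 1 of PBS then LPS at 6 h (0.79) or replicate 1 of Poly I:C then LPS, either that of 2 h (0.75) or that of 6 h (0.82). Without replicate 2 of PBS then LPS at 2 h, Irak4 (-0.78) and Ticam2 (-0.55) passed as well.

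**Figure D3:**
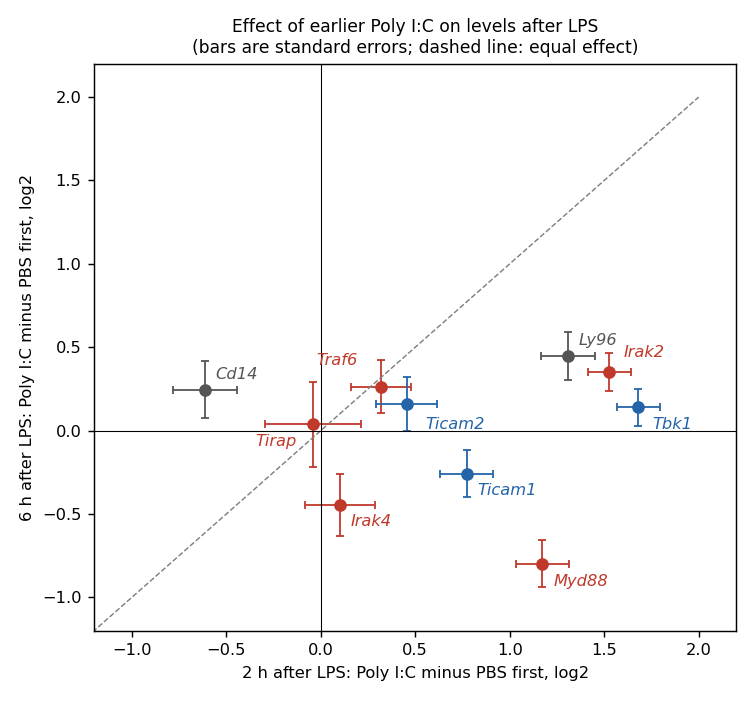
Effect of Poly I:C against PBS before LPS on each member's log2(FPKM + 1) level at 2 h (horizontal axis) and 6 h (vertical axis), with standard errors as bars and equal effects on the dashed line; red is the MyD88 branch, blue the TRIF branch and grey the co-receptors. Myd88, Tbk1, Irak2, Ticam1 and Ly96 lie below the line and Cd14 above it.

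The course from 2 h to 6 h differed with the first stimulus. In PBS then LPS 7 members rose and Cd14 fell (-0.77 ± 0.17, adjusted p = 0.00387), beside 23.4% of genes higher and 26% lower. Myd88 rose by 1.77 ± 0.14, Tirap by 0.89 ± 0.25, Ly96 by 0.86 ± 0.14, Tbk1 by 0.79 ± 0.11, Irak2 by 0.72 ± 0.11 and Ticam1 by 0.63 ± 0.14 (adjusted p from 4.30e-06 for Myd88 to 0.0152 for Tirap, limma). Irak4 rose as given above. In Poly I:C then LPS only Tirap rose (0.96 ± 0.25, adjusted p = 0.0126), beside 14.7% of genes. Tbk1 (-0.75 ± 0.11), Irak2 (-0.45 ± 0.11) and Ticam1 (-0.40 ± 0.14) fell, beside 25.3% (adjusted p = 5.83e-04, 0.00983 and 0.0440). In Poly I:C then PBS no member rose and 5 fell, beside 18% of genes. Tbk1 changed by -1.06 ± 0.11, Irak2 by -0.79 ± 0.11, Myd88 by -0.71 ± 0.14, Cd14 by -0.68 ± 0.17 and Ticam1 by -0.62 ± 0.14 (adjusted p from 1.59e-04 for Tbk1 to 0.0142 for Cd14). The PBS-then-PBS groups have 1 library each and were not compared over time. Of those 5 members, Irak2 (21.8 and 12.2 FPKM), Cd14 (338 and 231 FPKM) and Tbk1 (23.9 and 21.1 FPKM) were lower at 6 h there too. Myd88 (28.2 and 29.4 FPKM) and Ticam1 (4.37 and 7.03 FPKM) were higher at 6 h there. Whether the falls in Poly I:C then PBS differ from the course in PBS then PBS was not tested.

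Leaving out single libraries changed these counts in both directions. In Poly I:C then LPS the 4 calls became 1 without replicate 2 at 2 h and 2 without either replicate at 6 h. The Ticam1 fall there was lost without any 1 of the 4 libraries (-0.35 to -0.45), with no filter, with median-of-ratios scaling (-0.37) and with a replicate block. In Poly I:C then PBS the 5 became 3 without replicate 2 at 2 h, and without replicate 1 at 6 h Cd14 was lost and Ly96 passed (-0.42). In PBS then LPS the 8 became 9 without replicate 2 at 2 h, where Ticam2 passed (0.52), and 7 without replicate 1 at 6 h. Without replicate 1 at 2 h Traf6 passed as lower (-0.44). The Tirap rise in PBS then LPS was lost without replicate 1 at 2 h (0.45) or replicate 1 at 6 h (0.76).

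The branches were set side by side within each library, where the scaling between libraries cancels. The FPKM ratio of Myd88 to Ticam1 was 6.47 in PBS then PBS at 2 h and 4.18 at 6 h, and 7.79 and 4.82 in PBS then LPS at 2 h. After Poly I:C alone it was 6.83 and 5.09 at 2 h and 6.12 and 5.29 at 6 h. With both agents it was 7.54 and 8.22 at 2 h and 9.04 and 9.33 at 6 h. It was highest in PBS then LPS at 6 h, at 11.9 and 14.8, above every other library. The ratio of the kinases Irak2 and Tbk1 varied less: it was 0.914 and 0.580 in the PBS-only libraries at 2 h and 6 h and between 0.823 and 1.32 in all other libraries. On summed FPKM the 5 MyD88 branch genes stood at 71.6 and 59.8 FPKM and the 3 TRIF branch entries at 76.3 and 77.9 FPKM in the PBS-only libraries at 2 h and 6 h. After 6 h of LPS alone they stood at 316 and 370 FPKM against 137 and 137 FPKM, and with both agents at 6 h at 256 and 246 FPKM against 152 and 142 FPKM. At 2 h with both agents they stood at 292 and 301 FPKM against 193 and 201 FPKM. These sums are led by Myd88 on one side and by the Ticam2 and Tmed7 entry and Tbk1 on the other, and no test was made over the members of a branch.

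**Figure D4:**
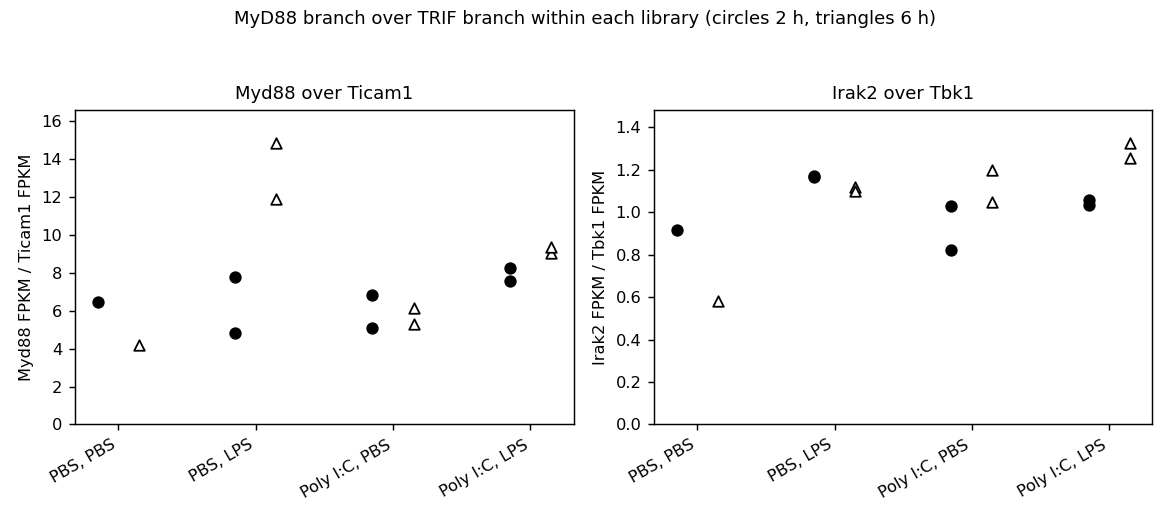
FPKM of Myd88 over Ticam1 (left) and of Irak2 over Tbk1 (right) within each library, on linear axes from 0, by first and later stimulus; filled circles are 2 h and open triangles 6 h. The Myd88 to Ticam1 ratio is highest in PBS then LPS at 6 h (11.9 and 14.8), and the Irak2 to Tbk1 ratio is lowest in PBS then PBS at 6 h (0.580).

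Other genes of the same pathway gave a wider frame. Tlr4 was 14.02 FPKM in PBS then PBS at 2 h and 3.20 and 5.43 FPKM in PBS then LPS at 2 h (-1.53 ± 0.29, adjusted p = 0.00487, limma), and it did not pass at 6 h (0.03, 95% interval -0.61 to 0.67). Tlr3, the Poly I:C receptor, was 2.59 FPKM in PBS then PBS at 6 h and 88.7 and 111 FPKM in PBS then LPS at 6 h (4.80 ± 0.19, adjusted p = 3.32e-08, limma), and it did not pass at 2 h (0.45, 95% interval 0.03 to 0.87). In cells given LPS, earlier Poly I:C gave Tlr3 levels of 54.7 and 48.8 FPKM at 2 h against 3.08 and 3.83 FPKM without it. At 6 h of LPS after Poly I:C they were 47.2 and 41.5 FPKM. Like that of Myd88, the effect on Tlr3 turned from higher (3.57) to lower (-1.15) between the times, with a difference of -4.71 ± 0.22 (adjusted p = 2.76e-07). Tlr4 was also higher at 2 h (1.10) and lower at 6 h (-1.34), with a difference of -2.44 ± 0.33 (adjusted p = 2.35e-04).

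Of 17 further genes on the MyD88 side, LPS alone raised 7 and lowered 3 at 2 h and raised 8 and lowered 3 at 6 h. This list holds genes close to the receptor and genes of the kinases TAK1 and IKK further down. Its counts thus do not describe the MyD88 branch alone. The shares over all entries tested were 9.47% up and 6.39% down at 2 h, and 22.9% up and 20.6% down at 6 h, so the 3 lower at 6 h are near the share of all genes. Map3k8, the kinase TPL2 that feeds the ERK pathway, changed by 3.38 and 3.40 at the 2 times, and Peli1, a ubiquitin ligase of the IRAK complex, by 2.65 and 2.93. Lowest were Tab1, a partner of the kinase TAK1, at 2 h (-1.05) and Peli2, a relative of Peli1, at 6 h (-1.46). Ube2v1 (-0.84 at 2 h) and Irak1 (-0.72 at 6 h) fell too, but their entries also name other genes. With Poly I:C before LPS, 9 were higher and 2 lower at 2 h, led by Irak3, the inhibitory IRAK (1.59), and Pik3ap1, a PI3-kinase adaptor (1.51), with Peli2 (-1.23) and Map3k8 (-1.05) lower. At 6 h only 2 were higher, Ikbkb, the kinase IKK-beta (2.15), and Irak3 (0.53), and 3 lower, among them Pik3ap1 (-1.10) and the entry of Irf5 with Tnpo3 (-0.65). All genes gave 32.6% higher and 28.5% lower at 2 h and 23.7% and 25.9% at 6 h. The median change with Poly I:C before LPS was 0.51 at 2 h and 0.03 at 6 h for these 17 genes, against 0.05 and 0.00 over all genes.

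Of 11 further genes on the TRIF side 10 could be tested. LPS alone raised 3 and lowered 1 at 2 h and raised 4 at 6 h, led by Irf7, the interferon-induced transcription factor (1.68 at 2 h and 6.93 at 6 h), beside the same 9.47% and 6.39% of all genes at 2 h and 22.9% higher at 6 h. Ikbke, the kinase closest to TBK1, rose by 1.67 at 2 h, Tbkbp1, a scaffold of TBK1, fell by 0.98 at 2 h, and Azi2, another scaffold of TBK1, rose by 2.83 at 6 h. With Poly I:C before LPS, 5 were higher at 2 h, led by Irf7 (5.50) and Azi2 (2.25), beside 32.6% of all genes. At 6 h Traf3, the ubiquitin ligase that TRIF recruits (1.42), and Tank, an adaptor of TBK1 (1.36), were higher and Tbkbp1 (-0.79) and Azi2 (-0.42) lower, 2 of 10 each way beside 23.7% and 25.9%. Irf3 itself was 18.5 to 37.4 FPKM in all libraries and did not pass with LPS alone at either time. With Poly I:C before LPS it was 1 of the 5 higher at 2 h (0.62, adjusted p = 0.00954) and did not pass at 6 h (0.45, adjusted p = 0.0515). Median changes with Poly I:C before LPS were 0.43 at 2 h and 0.14 at 6 h.

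On the receptor side, which includes Tlr3 and Tlr4, 8 of 9 genes could be tested. With LPS alone only Tlr4 passed at 2 h. At 6 h LPS raised 4 and lowered 1, beside 22.9% and 20.6% of all genes, with Ly86, a relative of Ly96 that binds the TLR4-like receptor CD180, at 1.98 and Cnpy3, a TLR chaperone, at -0.67 at 6 h. With Poly I:C before LPS 5 were higher and 2 lower at 2 h, with Ly86 at 2.41, the scavenger receptor Cd36 at -2.06 and the entry of the chaperone Hsp90b1, which names 2 more genes, at -1.92. The 2 of 8 lower are near the 28.5% of all genes, and the 5 higher stand beside 32.6%. At 6 h 6 were lower, beside 25.9%, with Cd36 at -2.62 and Hsp90b1 at -1.52. Cd36 levels with both agents were 51.4 and 42.5 FPKM at 2 h and 28.6 and 28.7 FPKM at 6 h, against 152 and 259 FPKM and 196 and 169 FPKM with LPS alone. The named members of these 3 lists are, apart from Tlr3, Tlr4 and Irf3, those with the largest called changes in each direction.

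As a description of which genes shared the pattern of the main adaptor of each branch over the 14 libraries, the highest Pearson correlations of log2(FPKM + 1) with Myd88 were those of the proteasome subunits Psma3 (r = 0.989) and Psma4 (0.981) and of Tax1bp1 (0.978). Those with Ticam1 were Parp14 (0.957), Il1rn (0.951) and Otud1 (0.951). The libraries share the same treatments, so these values reflect groups more than single libraries. No gene was on both lists of 3.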

How the data were processed

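RNA with poly(A) from 14 libraries was read in paired 76 bp reads from a stranded mRNA kit, per the labels' protocols. The deposited table gives FPKM per gene entry. TopHat2, Cufflinks, Cuffnorm and build mm9 are named in the submitters' processing notes, without versions or scaling method. Of 33795 entries that name 1 GENCODE M21 gene, 33738 overlapped it in GRCm38 and 13315 shared its exact ends, so GRCm38 coordinates are used. The table holds no counts, so depth is unknown and counting intervals cannot be given. Judged by the steps between low values, what 1 fragment is worth varied 3.08-fold between libraries (91 of 91 library pairs fitted to 0.1 log2).

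Entries with a name and a level of 1 FPKM or more in 2 or more libraries were tested, 11977 in all and all 10 members among them. The scale was log2(FPKM + 1), which understates changes of low genes. limma 3.58.1 in R 4.3.3 fitted 1 mean per group to all 14 libraries with a trended prior; there were 6 residual degrees of freedom and the prior had a median of 3.99. In each of 14 comparisons a change was called at a 2-sided Benjamini-Hochberg adjusted p under 0.05 over all tested entries. From lists of other pathway genes, up to 2 called changes in each direction were named by size, for LPS alone and for Poly I:C before LPS. Tlr3, Tlr4 and the 3 genes most correlated with Myd88 and with Ticam1 were named too, and Irf3 after its values had been seen. The members, lists and tests were chosen with earlier results of these data known. The settings varied were the pseudocount (0.1), the filter (none), scaling between libraries (median of ratios), the prior (no trend), the libraries fitted (those of 1 time, or all but 1 replicate), the control (the PBS-only libraries of both times together) and a replicate block.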

Additional observations from a re-analysis of the deposited data

Results flagged for a closer look

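These results are listed because an effect differed between conditions by a test of the difference itself (limma, adjusted over all genes). Groups held at most 2 libraries, too few to look for outlying libraries within a group. The response to LPS at 6 h differed between cells given Poly I:C and cells given PBS first for Cd14 (1.80, larger after Poly I:C), Myd88 (-1.66) and Irak2 (-1.02), both smaller after Poly I:C. Levels at 6 h without LPS differed too, by -1.56 for Cd14, 0.86 for Myd88 and 1.37 for Irak2. With LPS the differences were 0.24 (not passed), -0.80 and 0.35. The effect of earlier Poly I:C on the level after LPS differed between 6 h and 2 h for Myd88 (-1.97), Tbk1 (-1.54), Irak2 (-1.17), Ticam1 (-1.03) and Ly96 (-0.86), all lower at 6 h, and for Cd14 (0.86), higher at 6 h. All values are differences on the log2(FPKM + 1) scale. The 3 values for the response to LPS, and the differences without LPS, rest on 1 PBS-then-PBS library as control.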

How the results depend on the processing

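Of the members' changes over the 14 comparisons, 73 were called and 67 were not. Of these, 18 called ones lost the call under at least 1 setting, 0 turned, and 19 uncalled ones passed under at least 1. Changes that turned were small and uncalled, and the cause was not tested. With both PBS-only libraries as control, Tirap with LPS alone at 2 h was 0.19 and the 2 h interaction -0.24 for Irak2 and -0.011 for Traf6. With median-of-ratios scaling, Ly96 from 2 h to 6 h in Poly I:C then LPS was 0.027. Leaving out 1 replicate gave, for LPS alone at 2 h, -0.55 to 0.33 (Tirap) and -0.16 to 0.35 (Ticam2). For Poly I:C before LPS at 2 h it gave -0.48 to 0.40 (Tirap) and -0.13 to 0.33 (Irak4), and for the 2 h interaction -0.61 to 0.26 (Tirap) and -0.15 to 0.28 (Traf6). For Poly I:C before LPS at 6 h it gave -0.12 to 0.20 (Tirap). From 2 h to 6 h it gave -0.016 to 0.19 (Cd14), -0.031 to 0.023 (Ly96) and -0.11 to 0.047 (Ticam2) in Poly I:C then LPS and -0.42 to 0.089 (Ly96) in Poly I:C then PBS. For the 6 h minus 2 h effect of Poly I:C before LPS it gave -0.36 to 0.52 (Tirap) and -0.27 to 0.16 (Traf6). Members called then numbered 0 to 2 for the 2 h interaction (0 with all libraries), 1 to 2 for Poly I:C before LPS at 6 h (3), 1 to 3 from 2 h to 6 h in Poly I:C then LPS (4) and 3 to 5 in Poly I:C then PBS (5). A replicate block changed 3 of the 14 counts by 1, giving 5 for LPS after Poly I:C at 2 h (6 without the block), 4 for Poly I:C before LPS at 6 h (3) and 3 from 2 h to 6 h in Poly I:C then LPS (4). Like-numbered replicates deviated together at r = -0.19 to 0.078 over 15 pairs of groups, which cannot tell what, if anything, libraries of 1 number share. Scaling moved the median of all genes from -0.10 to -0.08 for that last comparison. Summing entries gave nothing new, since each member has 1 entry, and a PBS-only library could not be left out. Where a group kept 1 library, it was assumed to vary like the others.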
